A study of Arabidopsis thaliana with 24 samples.

Results

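The genes described here are 9 Arabidopsis genes of gravity sensing, picked by locus for their known roles and not by a rule on measured values. Earlier results of these data were known when they were chosen. PGM1 (AT5G51820, listed in the files as PGM) encodes the plastidic phosphoglucomutase needed for starch synthesis. SHR (AT4G37650) and SCR (AT3G54220) encode transcription factors of the GRAS family that specify the endodermis, and SGR5 (AT2G01940) encodes a zinc-finger protein of the indeterminate-domain family that is expressed there. SGR2 (AT1G31480) encodes a phospholipase A1-like protein of vacuolar membranes, while VTI11 (AT5G39510, listed as SGR4) and SYP22 (AT5G46860, listed as VAM3) encode SNAREs, membrane fusion proteins of the route to the vacuole. ARG1 (AT1G68370) and its relative ARL2 (AT1G59980) encode J-domain proteins that act in gravity signalling. Each gene was found by its locus and had exactly 1 probe set of its own, so 9 of the 22810 probe sets on the array are described.

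Plants sense gravity in cells that hold statoliths, starch-filled plastids (amyloplasts) that sink to the lower side of the cell. In the Arabidopsis shoot these cells form the endodermis, the layer around the vascular tissue, and in the root they form the columella of the root cap. Because the central vacuole fills most of an endodermal cell, statoliths settle through narrow strands of cytoplasm that cross it, and mutants with altered vacuolar membranes bend poorly toward the vertical. Sedimentation is followed by a signal that redirects auxin transport, which makes the organ bend.

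The values come from 24 Affymetrix arrays of wild-type Col-0, 6 in each of 4 groups. Undifferentiated cultured cells derived from hypocotyls (about 1 g per dish) and dark-grown seedlings (about 75 seeds per dish, vernalized at 4 °C) were flown in closed canisters on an orbiter, or kept as controls at unit gravity in the same canister positions. Dishes were 60 mm wide and held nutrient agar, and flight material was preserved in RNAlater while still in orbit, 12 days and 21 hours into the mission. All 24 samples are labelled 7 days old. All material was wild type and not transgenic, per the labels' protocols. Cells lay mostly in canister B and seedlings mostly in canister A, and only canister G held both materials. Each seedling sample is a mix of whole seedlings, so that fewer cells of a type and less RNA per cell cannot be told apart. Undifferentiated cells have no endodermis or root cap. Levels are given as log2(intensity + 16), where the intensity is the deposited MAS5 value. Background on each array was the level that 95% of 27 bacterial control probe sets did not exceed, since no detection calls came with the values.

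A pair of arrays stood apart. Flight cell replicate 5 had 76.7% of probe sets above background, against 9.9 to 29.4% on the other flight cell arrays and 11.5 to 23.1% on ground cell arrays. Ground seedling replicate 1 had a median correlation of 0.69 with the other ground seedling arrays, whose own medians were 0.81 to 0.83. Flight seedling arrays had medians of 0.85 to 0.91 within their group. Cell arrays correlated far less with their own group, with medians of 0.26 to 0.41 in flight and 0.27 to 0.35 on the ground. Seedling arrays had more probe sets above background in flight (62.0%) than on the ground (49.9%), a difference of 12.1 percentage points (two-sided exact permutation test, n = 6 arrays per group, p = 0.0173, adjusted over 4 such comparisons 0.0231). Ground seedling arrays also had the higher background, with a mean log2 level of 7.62 ± 0.43 (SD) against 6.89 ± 0.33. Background was much higher on cell arrays, at 9.58 ± 1.08 in flight and 9.90 ± 0.25 on the ground. No pair of arrays held identical values.

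In seedlings most of the gravity genes were readable, and in cultured cells most were not. Between 7 and 9 of the 9 genes were above background on each flight seedling array, and between 5 and 8 on each ground seedling array. On cell arrays 1 to 3 genes were above background, except on flight cell replicate 5, where all 9 were. Over all probe sets the share per array was 56.6 to 66.7% in flight seedlings and 39 to 61.5% in ground seedlings. It was 11.5 to 23.1% in ground cells and 9.9 to 29.4% in flight cells other than replicate 5, which had 76.7%. VTI11, SYP22, ARG1 and SGR5 were above background on all 12 seedling arrays. The mean seedling level of VTI11 and of SYP22 exceeded the background of every cell array in both groups, so for these genes a low cell reading can be compared with a seedling level. For SHR and ARG1 the mean seedling level exceeded the background of at most 2 of the 12 cell arrays, for SGR2 and SCR of 1, and for PGM1 and ARL2 of none. For SGR5 it was 10 with the flight mean and 2 with the ground mean.

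**Figure D1:**
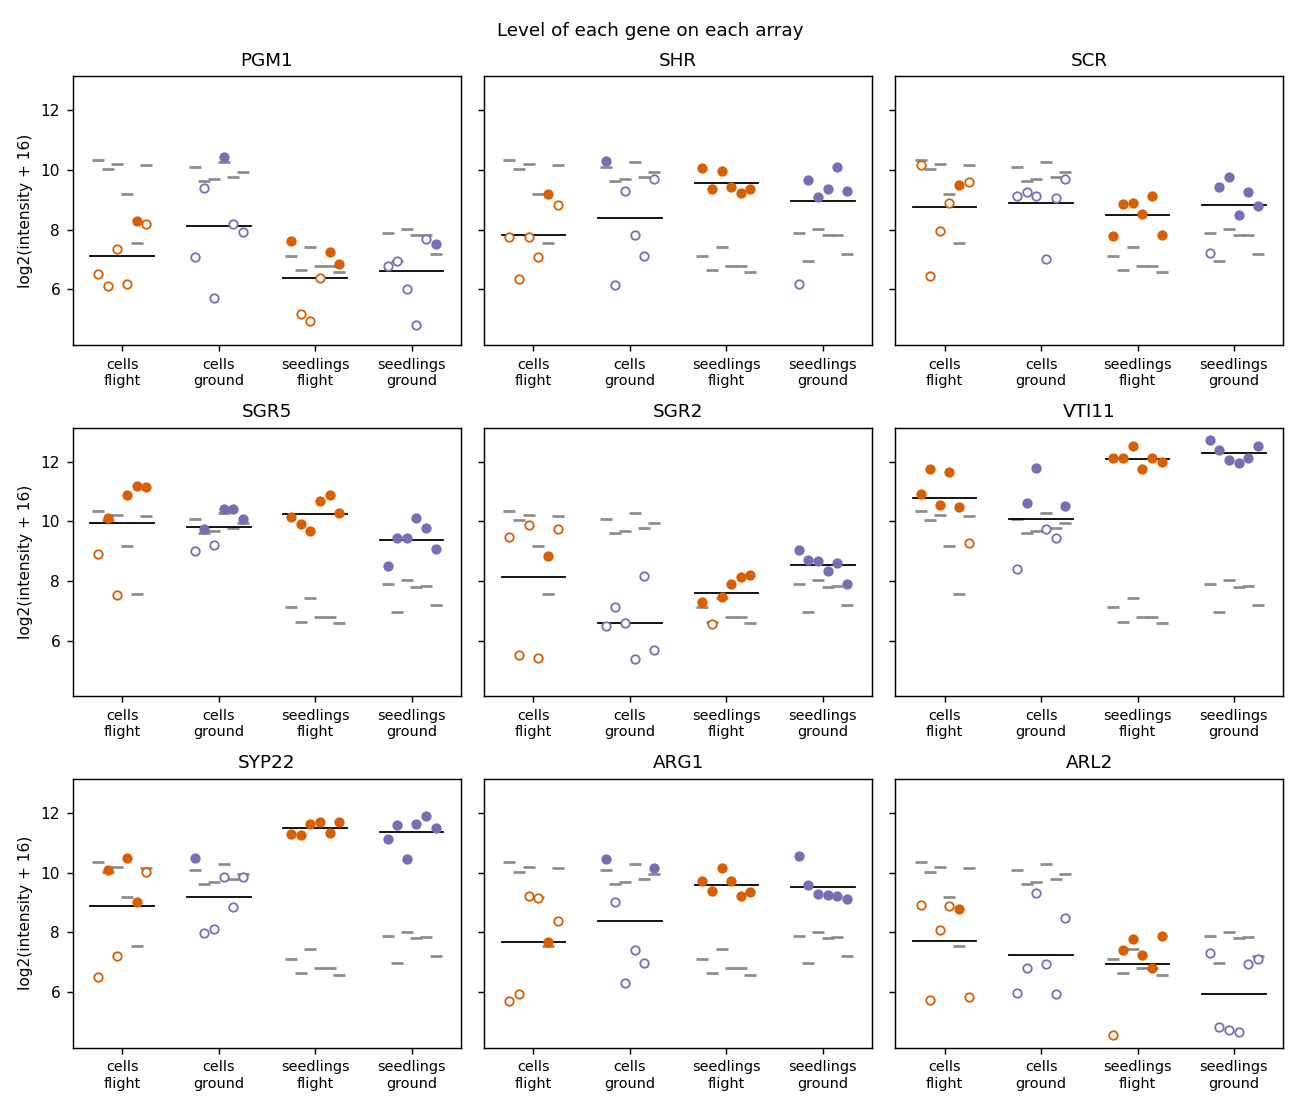
Level of each gene as log2(intensity + 16) (vertical axis) on the 6 arrays of each group (replicates 1 to 6 from left to right). Filled points are above the background of their array, open points are not, grey dashes give that background and black lines the group means. VTI11 and SYP22 stand well above background in seedlings, while most cell readings of the other genes are open points.

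No gravity gene passed the test of flight against ground in either material. In seedlings 4 of 22746 probe sets (0.0176%) had an adjusted p under 0.05 in limma, and none of them was a gravity gene. In cultured cells 8 of 22746 (0.0352%) did, again with no gravity gene among them. At an unadjusted p under 0.05 limma gave 1823 probe sets in seedlings, 2 of them gravity genes (SGR2 and SGR5), and 1310 in cells, none of them a gravity gene. The median difference of the 9 genes was 0.09 in seedlings and -0.12 in cells on the log2 scale, beside -0.02 and 0.01 over all probe sets. The members follow in the order of their roles. Adjusted p-values are from limma, corrected by Benjamini-Hochberg across all 22746 probe sets, and brackets give 95% confidence intervals.

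PGM1, the starch enzyme, read near background in every group. In seedlings it ranged from 4.95 to 7.62 in flight (median 6.62, above background on 3 of 6 arrays) and from 4.80 to 7.70 on the ground (median 6.87, 1 of 6). The groups overlapped almost entirely, and flight minus ground was -0.26 (-1.48 to 0.96, adjusted p = 0.917). In cells it ranged from 6.13 to 8.28 in flight (median 6.93) and from 5.72 to 10.43 on the ground (median 8.07), with 1 array above background in each group. The cell difference of -1.01 (-2.63 to 0.60, adjusted p = 0.946) had an interval that held 0. A change of PGM1 was therefore not detectable at these signal levels, and its absence was not shown.

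SHR, whose protein in the root moves from the vascular cylinder into the next layer and sets its fate as endodermis, was well above background in nearly all seedlings. Its flight seedling levels ran from 9.23 to 10.07 (median 9.40), and the ground levels from 6.18 to 10.09 (median 9.34). The lowest value, 6.18, came from ground replicate 1 and lay below background, while the other 5 ground arrays read 9.10 to 10.09, within or next to the flight range. Flight minus ground was 0.62 (-0.54 to 1.78, adjusted p = 0.766) with all arrays and 0.07 (adjusted p = 0.961) without that replicate. In cells SHR ranged from 6.36 to 9.19 in flight (median 7.75) and from 6.15 to 10.30 on the ground (median 8.55), each with 1 of 6 arrays above background. The cell groups overlapped, with a difference of -0.57 (-2.18 to 1.05, adjusted p = 0.978).

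SCR, which acts with SHR in forming the endodermis, had flight seedling levels of 7.78 to 9.12 (median 8.69), all above background. Ground seedlings read 7.23 to 9.77 (median 9.04), and the lowest value, from replicate 1, was again the only one below background. The seedling groups overlapped and flight minus ground was -0.34 (-1.25 to 0.58, adjusted p = 0.835), or -0.66 (adjusted p = 0.622) without ground replicate 1. In cells the ranges were 6.44 to 10.18 in flight (median 9.19, 1 of 6 above background) and 7.01 to 9.72 on the ground (median 9.12, none above background). The cell difference was -0.12 (-1.74 to 1.49, adjusted p = 0.995).

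SGR5, the zinc-finger factor of the endodermis, read higher in flight seedlings than in ground seedlings, without passing the test. Flight seedlings read 9.67 to 10.88 (median 10.21) and ground seedlings 8.49 to 10.11 (median 9.44), all 12 above background. All 6 flight arrays lay above the ground mean, but the ranges overlapped between 9.67 and 10.11. Flight minus ground was 0.87 (0.16 to 1.58), an interval for this gene alone that does not reach 0, and it did not pass adjustment over all probe sets (adjusted p = 0.545). Without ground replicate 1, which gave the lowest reading, the difference was 0.69 (adjusted p = 0.535). In canister A the seedling difference was 0.80 (5 arrays per group) and in canister G 1.22 (1 array each). The authors' deposited table gives SGR5 a log2 fold change of 0.99 with a p-value of 0.00864 and a q-value of 0.333 in seedlings. In cells SGR5 ranged from 7.54 to 11.17 in flight (median 10.49) and from 9.0 to 10.43 on the ground (median 9.92), with 4 of 6 arrays above background in each. There the difference was 0.14 (-1.47 to 1.76, adjusted p = 0.995).

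SGR2, the phospholipase-like protein of the vacuole, read lower in flight than on the ground in seedlings, without passing the test. Flight seedlings ran from 6.57 to 8.20 (median 7.69, above background on 5 of 6) and ground seedlings from 7.91 to 9.03 (median 8.64, 6 of 6). All 6 flight arrays lay below the ground mean, and the groups overlapped only between 7.91 and 8.20. Flight minus ground was -0.95 (-1.66 to -0.23, adjusted p = 0.519), and -0.85 (adjusted p = 0.492) without ground replicate 1. The difference was -1.19 in canister A and 0.29 in canister G, where it rests on 1 array per group. The authors' deposited table gives SGR2 a log2 fold change of -0.93 with a q-value of 0.404 in seedlings.

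Cultured cells gave SGR2 the opposite sign, at readings mostly below background. Flight cells fell into high readings on replicates 1, 3, 5 and 6 (9.48, 9.87, 8.84 and 9.74) and low ones on replicates 2 and 4 (5.52 and 5.42), and only replicate 5 was above its background. Ground cells ran from 5.40 to 8.18 (median 6.54), with no array above background. Flight minus ground was 1.56 (-0.05 to 3.17, adjusted p = 0.87). No fold can be given here, because the mean of the flight cells lies under the ground background. The flight effect in cells minus that in seedlings was 2.51 (0.57 to 4.45, adjusted p = 0.605). No probe set passed that test of the difference of flight effects (limma, 0% of 22746, with 1508 at an unadjusted p under 0.05), and of the 9 genes SGR2 had the smallest p.

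VTI11, a v-SNARE of vesicles bound for the vacuole, held a narrow range in seedlings. It read 11.76 to 12.54 in flight (median 12.11) and 11.96 to 12.73 on the ground (median 12.25). The groups overlapped over most of their length, and the difference was -0.19 (-0.75 to 0.37, adjusted p = 0.852). That interval is the tightest of the 9 genes and leaves room for changes of less than 1 log2 unit in either direction. In cells VTI11 was above background on 5 of 6 flight arrays (9.27 to 11.74, median 10.73) and on 3 of 6 ground arrays (8.41 to 11.80, median 10.13). The cell difference of 0.69 (-0.93 to 2.30, adjusted p = 0.973) lay within the spread of the arrays.

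SYP22, the syntaxin that VTI11 pairs with on the way to the vacuole, was above background on all 12 seedling arrays. Flight seedlings read 11.25 to 11.69 (median 11.49) and ground seedlings 10.45 to 11.89 (median 11.54), so that the flight range fell inside the ground range. Flight minus ground was 0.12 (-0.51 to 0.75, adjusted p = 0.929). In cells SYP22 ranged from 6.51 to 10.49 in flight (median 9.51, 3 of 6 above background) and from 7.99 to 10.50 on the ground (median 9.36, 1 of 6). The difference of the cell groups was -0.31 (-1.92 to 1.30, adjusted p = 0.983).

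ARG1, a J-domain protein of the membrane system that is needed for full gravity responses of root and hypocotyl, was above background on all 12 seedling arrays. Flight seedlings read 9.22 to 10.14 (median 9.55) and ground seedlings 9.13 to 10.56 (median 9.27). The highest ground value came from replicate 1 and the other 5 ground arrays reached only 9.59. Flight minus ground was 0.09 (-0.58 to 0.75, adjusted p = 0.957), and 0.30 (adjusted p = 0.756) without that replicate. Cells ranged from 5.71 to 9.23 in flight (median 8.04, 1 of 6 above background) and from 6.30 to 10.47 on the ground (median 8.22, 2 of 6), with a difference of -0.71 (-2.32 to 0.91, adjusted p = 0.973).

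ARL2, the relative of ARG1, crossed the background line between the seedling groups. In flight it was above background on 5 of 6 arrays, with levels from 4.54 to 7.87 (median 7.33), and on the ground on 0 of 6, with levels from 4.66 to 7.29 (median 5.88). The levels themselves overlapped, and the difference of 1.02 (-0.37 to 2.42, adjusted p = 0.71) did not pass the test. Background was higher on the ground arrays, and its part in the count of arrays was not tested. No fold is given, since the flight mean of 6.94 lies under the ground background. In cells ARL2 ranged from 5.73 to 8.91 in flight (median 8.43, 1 of 6 above background) and from 5.94 to 9.32 on the ground (median 6.87, none above background), with a difference of 0.46 (-1.15 to 2.08, adjusted p = 0.978).

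**Figure D2:**
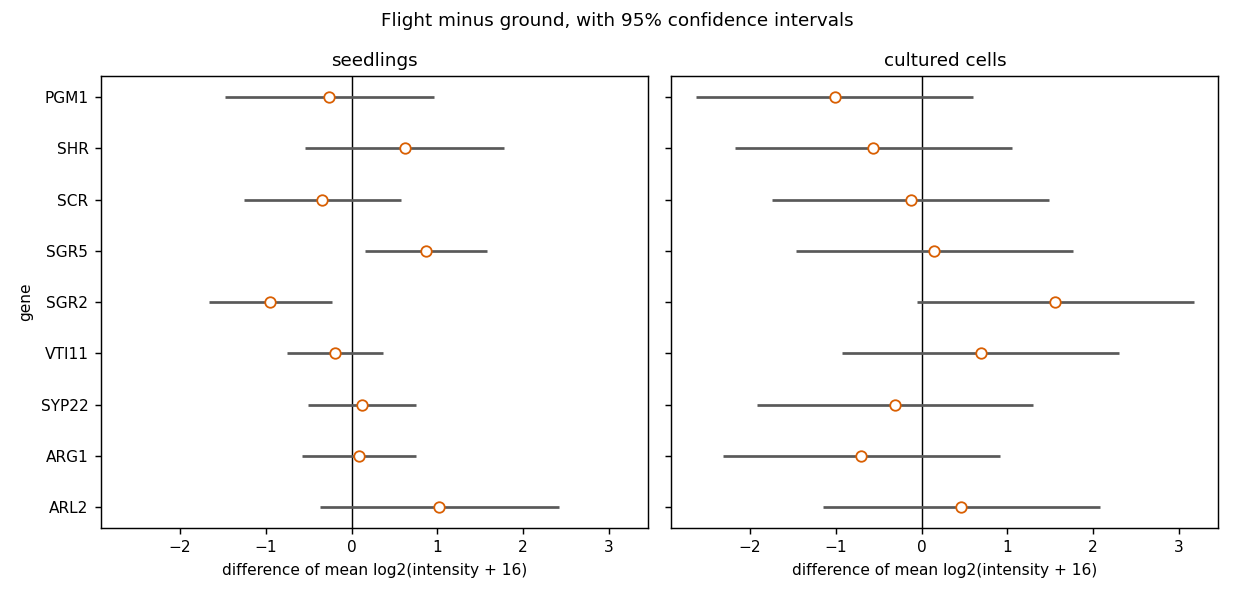
Flight minus ground for each gene, as the difference of mean log2(intensity + 16) (horizontal axis) with its 95% confidence interval, in seedlings and in cultured cells. All points are open because none passed the adjusted threshold, and the cell intervals share 1 width because the fit gave all 9 genes the same standard error of 0.82.

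The seedling standard errors ran from 0.26 for VTI11 to 0.65 for ARL2, against 0.82 for every gene in cells. Without flight cell replicate 5 the cell differences ran from -1.25 for PGM1 to 1.42 for SGR2, and all adjusted p-values were 0.936 or more. In the authors' deposited table for cells the smallest q-value of the 9 genes was 0.865, and in that for seedlings 0.333.

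Ground seedling replicate 1 gave extreme readings of several gravity genes and of many other probe sets. Among the 12 seedling arrays it gave the lowest reading of SHR, SCR and SGR5 (6.18, 7.23 and 8.49). It gave the highest reading of SGR2, VTI11 and ARG1 (9.03, 12.73 and 10.56), and it lay within the range of the others for SYP22, PGM1 and ARL2. So it was lowest for 33.3% and highest for 33.3% of the 9 genes, beside 21.8% and 17.2% of all 22746 probe sets. No difference between these shares was tested.

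All 4 markers of the differentiated endodermis were below background on that array and above it on each of the other 11. ESB1, needed for the lignified Casparian strip, read 5.47 there and 11.10 to 12.79 on the other seedling arrays. CASP1, a scaffold protein of the strip, read 5.41 against 9.91 to 11.06. Of the 8 endodermis and IDD factors, 3 were lowest on that array (MYB36, SCL23 and NUC) and the other 5 lay within the range of the others. MYB36, a factor that switches on genes of the Casparian strip, read 5.16 against 7.68 to 8.92. SCL23, a GRAS relative of SCR, read 6.28 against 8.05 to 9.46. Of 6 shoot epidermis markers none was above background on the array, while 4 to 6 were on each of the others. PDF1, CUT1 and FDH were lowest on that array, while ATML1, CER1 and LTP1 lay within the range of the others. PDF1, a protein of the epidermal layer, read 6.70 against 9.28 to 11.87. LTP1, at 7.86, was just under the background of 7.89. The 8 listed root and root cap markers were sparse on seedling arrays, with 1 above background on that array and 0 to 3 on the others. The seedling arrays thus carry little measured signal of these 8 markers. Whether the endodermis markers were read from shoot or root endodermis was not tested. The summed intensity of the 4 endodermis markers, on a log2 scale, ran from 11.96 to 13.00 in flight seedlings and from 7.74 to 13.31 in ground seedlings. That of the 6 epidermis markers ran from 11.48 to 12.86 and from 9.24 to 11.89. What part the makeup of this sample had in its readings of the gravity genes was not tested.

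**Figure D3:**
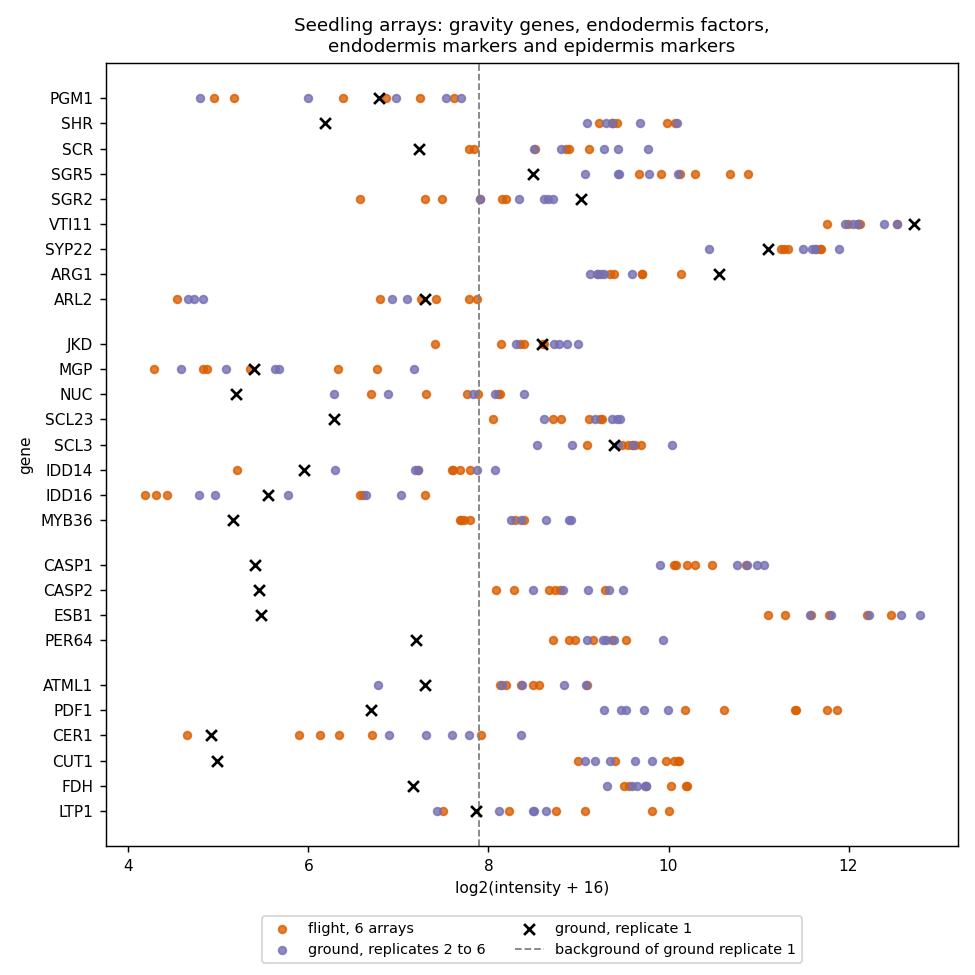
Levels as log2(intensity + 16) (horizontal axis) on the 12 seedling arrays for the 9 gravity genes, 8 endodermis and IDD factors, 4 endodermis markers and 6 epidermis markers, from top to bottom. The cross is ground replicate 1 and the dashed line its background. The cross lies far below the other arrays for SHR, SCL23, MYB36, the 4 endodermis markers and the epidermis markers PDF1, CUT1 and FDH. It lies above them for SGR2, VTI11 and ARG1.

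Cells and seedlings differed widely, and 3 gravity genes in each condition passed the test as lower in cells. On the ground 38.1% of probe sets passed the test in either direction, and 10.5% passed as lower in cells. In flight 45.4% passed, and 12.5% as lower in cells. The median of all probe sets was itself higher in cells, by 0.77 on the ground and 0.75 in flight, at readings that were mostly below the background of the cell arrays. With quantile normalization the split of calls on the ground turned from 6282 higher and 2393 lower to 1840 higher and 2587 lower. In flight it turned from 7479 higher and 2852 lower to 2782 higher and 3227 lower. None of the endodermis, epidermis or root markers was above background on all 6 arrays of a cell group. Root and root cap markers passed as higher in cells for 5 of 8 genes on the ground and 7 of 8 in flight. Over all probe sets 27.6% and 32.9% passed as higher. All 8 root markers had positive differences in both conditions. In ground cells 3 of these 8 markers were above background on no array, against 0 in flight cells. In seedlings that held for 3 on the ground and 5 in flight. Endodermis markers passed as lower for 1 and 2 of 4, and all 4 had negative differences in both. Of 6 epidermis markers, 1 passed as lower on the ground, and in flight 2 passed as lower and 1 as higher. The 9 gravity genes had a median difference of -0.56 on the ground and -0.30 in flight.

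SYP22 was lower in cells in both conditions, with 1 of 6 ground and 3 of 6 flight cell arrays above background. On the ground the difference was -2.16 (-3.44 to -0.89, adjusted p = 0.00716), with overlap only because the highest cell array, at 10.50, passed the lowest seedling array, at 10.45. In flight it was -2.59 (-3.87 to -1.31, adjusted p = 0.00118), and the groups did not overlap. Relative to the median of all probe sets these differences were -2.93 and -3.34. Under quantile normalization they were -2.12 and -2.36, with adjusted p-values of 0.0224 and 0.0088.

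VTI11 was lower in ground cells than in ground seedlings by a log2 difference of -2.21 (-3.39 to -1.03, adjusted p = 0.00341), with no overlap between the groups. In flight the groups did not overlap either, but the difference of -1.33 (-2.52 to -0.15) missed the threshold (adjusted p = 0.059). It passed without flight cell replicate 2 (-1.53, adjusted p = 0.038) or replicate 4 (-1.51, adjusted p = 0.0396). Whether the pair of differences differed was part of the test of flight effects, where VTI11 had a value of 0.88 (-0.79 to 2.55, adjusted p = 0.901). Under quantile normalization the ground difference was -1.75 (adjusted p = 0.0496) and the flight difference -0.70 (adjusted p = 0.426).

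SGR2 passed on the ground alone, with a difference of -1.97 (-3.33 to -0.60, adjusted p = 0.0208), and its flight value was 0.54 (-0.83 to 1.91, adjusted p = 0.529). The ground cell readings were all below background, and the ground seedling mean of 8.55 was itself under the cell background, so no fold can be given. Without ground cell replicate 4 the adjusted p was 0.0525.

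SHR and ARG1 passed in flight. The difference was -1.75 (-3.11 to -0.39, adjusted p = 0.032) for SHR, without overlap, and -1.90 (-3.27 to -0.54, adjusted p = 0.02) for ARG1, with overlap at 9.22 to 9.23. Flight cell replicate 5 was the only flight cell array above background for either gene. Without it the fit gave -2.02 (adjusted p = 0.0193) and -1.91 (adjusted p = 0.0292), but no remaining flight cell array was above background, so these values are no measured fold. The flight seedling means of 9.58 and 9.59 exceed the background of only 2 of 12 cell arrays. With 1 array left out, SHR missed the threshold without flight cell replicates 2 or 4 or flight seedling replicates 1 or 3, and ARG1 without flight cell replicates 1 or 2. On the ground the values were -0.56 (adjusted p = 0.52) for SHR and -1.11 (adjusted p = 0.185) for ARG1.

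The other genes did not pass in either condition. PGM1, mostly below background, read higher in cells by 1.5 on the ground (0.12 to 2.87, adjusted p = 0.0762) and by 0.74 in flight (adjusted p = 0.384), with 1 cell array above background in each group. It passed on the ground without ground cell replicate 3, at 1.98 (adjusted p = 0.0218). ARL2 differed by 1.32 (adjusted p = 0.136) and 0.76 (adjusted p = 0.395), SGR5 by 0.43 (adjusted p = 0.586) and -0.30 (adjusted p = 0.706), and SCR by 0.05 (adjusted p = 0.961) and 0.26 (adjusted p = 0.759).

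Canister and material overlap only in canister G, with 2 cell arrays and 1 seedling array per condition. There VTI11 differed by -2.56 on the ground and -2.11 in flight, and SYP22 by -2.13 and -2.17. SGR2 differed by -0.97 on the ground, and SHR and ARG1 by -0.36 and -1.31 in flight. With the canister as a block none of the 9 genes passed. Calls over all probe sets fell from 8675 to 2315 of 22746 on the ground and from 10331 to 3767 in flight. The ground values with the block were -2.77 for VTI11 (adjusted p = 0.0572), -1.93 for SYP22 (adjusted p = 0.223) and -1.20 for SGR2 (adjusted p = 0.495). The flight values were -2.36 for SYP22 (adjusted p = 0.112), -1.23 for SHR (adjusted p = 0.463) and -1.33 for ARG1 (adjusted p = 0.425). Outside canister G the canister and the material cannot be told apart.

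**Figure D4:**
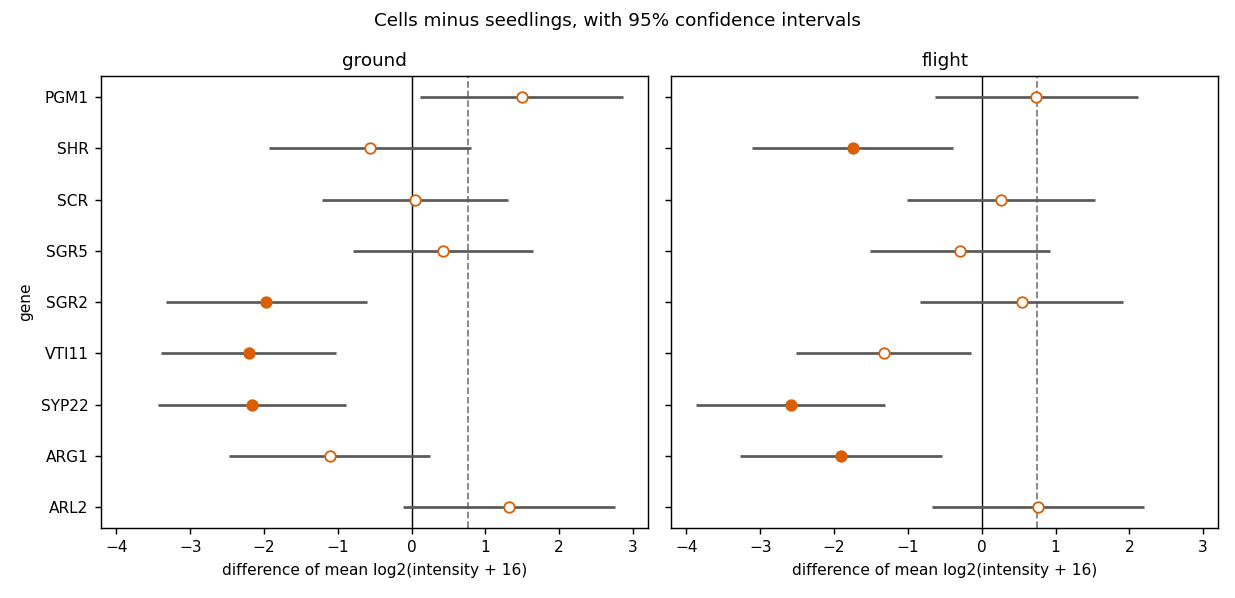
Cells minus seedlings for each gene, as the difference of mean log2(intensity + 16) (horizontal axis) with its 95% confidence interval, on the ground and in flight. Filled points passed the adjusted threshold, and the dashed line is the median of all probe sets, at 0.77 and 0.75: SYP22 is filled in both panels, SGR2 and VTI11 on the ground, SHR and ARG1 in flight.

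Ordered by group mean, VTI11 and SYP22 had both seedling groups above both cell groups. For VTI11 the order ran from ground seedlings (12.30 ± 0.31, SD, n = 6) through flight seedlings (12.11 ± 0.25) and flight cells (10.77 ± 0.91) to ground cells (10.09 ± 1.16). For SYP22 it ran from flight seedlings (11.48 ± 0.21) and ground seedlings (11.36 ± 0.51) to ground cells (9.20 ± 1.03) and flight cells (8.89 ± 1.65). In both genes the 2 seedling groups lay within their spread, as did the 2 cell groups. The PGM1 means were 8.13 ± 1.66 in ground cells, 7.11 ± 0.98 in flight cells, 6.63 ± 1.08 in ground seedlings and 6.37 ± 1.09 in flight seedlings. Most of these readings were below background, which was higher on cell arrays, so they give no order.

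Other genes of the same processes were read from 4 lists. The starch list holds 21 genes of starch synthesis and breakdown, and none passed for flight against ground in either material. In seedlings 16 of 21 had positive differences, against 48.5% of all probe sets, with a median of 0.31 against -0.02. Ground seedling replicate 1 was the lowest seedling array for 10 of the 21. Without it 14 were positive with a median of 0.15, against 46.1% and -0.05 over all probe sets. ADG1, the small subunit of ADP-glucose pyrophosphorylase, had the smallest p there, with a difference of 1.44 (0.39 to 2.49, adjusted p = 0.498), and was above background on 3 of 6 flight and 0 of 6 ground arrays. In cells ISA1, a starch debranching enzyme, had the smallest p, at 1.77 (adjusted p = 0.852), with 1 array above background in each group.

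Of 11 vacuole and membrane traffic genes none passed for flight against ground. The smallest p in seedlings belonged to SYP21, a syntaxin of the prevacuolar compartment, at -0.79 (-1.80 to 0.21, adjusted p = 0.69). In cells it belonged to SYP23, the closest relative of SYP22, at 1.93 (0.32 to 3.54, adjusted p = 0.844). Between materials, SYP23 and VTI12, the relative of VTI11, were the list's largest calls and lower in cells in both conditions. SYP23 differed by -4.61 on the ground (adjusted p = 1.93e-07), which stands for at least 4.42-fold since no ground cell array was above background, and by -2.75 in flight (adjusted p = 0.000386). VTI12 differed by -2.57 on the ground (adjusted p = 0.00173) and by -3.00 in flight (adjusted p = 0.000248), with 4 of 6 cell arrays above background in each. None of these groups overlapped between materials. In all, 2 of the 11 genes passed as lower and 1 as higher in cells in each condition. Over all probe sets 10.5% passed as lower and 27.6% as higher on the ground, and 12.5% and 32.9% in flight.

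The 8 endodermis and IDD factors had no call for flight against ground. JKD, an IDD protein that bounds the movement of SHR, had the smallest p in seedlings, at -0.46 (-1.07 to 0.14, adjusted p = 0.7). MYB36 had it in cells, at 1.78 (adjusted p = 0.852), with 1 flight array and no ground array above background. Between materials none passed on the ground, where IDD16 came nearest at 1.72 (adjusted p = 0.0513). In flight IDD16 (1.87, adjusted p = 0.029) and NUC (1.69, adjusted p = 0.028) read higher in cells, with 1 and 2 of 6 cell arrays above background. Most of those cell readings were thus below background, while NUC was above it on 6 of 6 flight seedling arrays and IDD16 on 1. Over all probe sets 38.1% passed in either direction on the ground, and 32.9% passed as higher in cells in flight.

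Among 14 genes of gravity signalling and auxin redistribution, none passed for flight against ground, and 12 had positive differences in seedlings (48.5% over all probe sets), with a median of 0.24 against -0.02. Ground seedling replicate 1 was the lowest array for 6 of the 14, and without it 10 were positive with a median of 0.12, against 46.1% and -0.05 over all probe sets. PIN3, an auxin efflux carrier of statocytes that moves within the cell after reorientation, had the smallest p in seedlings. Its flight mean was 9.35 and its ground mean 8.15, a difference of 1.2 (0.32 to 2.08, adjusted p = 0.499), above background on 6 of 6 and 4 of 6 arrays. In cells the smallest p belonged to TOC132, a plastid import receptor, at 1.68 (adjusted p = 0.852), with no array above background. Between materials 1 gene passed as higher and 2 as lower in cells on the ground, beside 27.6% and 10.5% of all probe sets. The largest differences were those of ARF7, an auxin response factor, at -2.92 (adjusted p = 0.000223, at least 1.17-fold), and TOC132 at -2.49 (adjusted p = 0.00507), with no ground cell array above background for either. In flight PIN2, the auxin efflux carrier of root epidermis, read 2.50 higher in cells (adjusted p = 0.00146) with 1 of 6 cell arrays above background, and TOC75-III, the plastid import channel, differed by -1.81 (adjusted p = 0.0127).

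In the starch list, 4 genes passed as higher and 2 as lower in cells on the ground, and 4 and 3 in flight. Over all probe sets 27.6% passed as higher and 10.5% as lower on the ground, and 32.9% and 12.5% in flight. PGI1, the plastidial phosphoglucose isomerase just upstream of PGM1, was lower in cells by -2.19 on the ground (adjusted p = 0.00633) and -2.30 in flight (adjusted p = 0.00315), with 1 of 6 cell arrays and 6 of 6 seedling arrays above background each time. SEX4, a phosphatase that acts on starch, read 3.17 higher in ground cells (adjusted p = 0.000814), but no cell array was above background. APL4, a large subunit of ADP-glucose pyrophosphorylase, read 2.41 higher in flight cells (adjusted p = 0.00438), with 2 of 6 cell arrays and no seedling array above background. For the difference of flight effects none of the 4 lists had a called gene. The smallest p in each belonged to ISA1 (1.69, adjusted p = 0.768), SYP23 (1.86, adjusted p = 0.714), MYB36 (1.88, adjusted p = 0.722) and ARF7 (1.58, adjusted p = 0.772).

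For the 4 genes above background on all 12 seedling arrays, the genes with the most similar pattern over the 24 arrays were found by the mean absolute difference of centred log2 levels, among 2248 probe sets with a symbol that were also above background on all 12. Nearest to VTI11 were MOS2 (0.47) and YLS8 (0.49), where the median probe set was 1.00 away. For SYP22 they were NF-YC11 (0.54) and QPT (0.55), and the median was 1.16. ARG1 had MMZ1 (0.60) and ACHT1 (0.64) as its nearest, with a median of 1.17. SGR5 had SDE3 (0.53) and ARP6 (0.56), with a median of 1.16. The 24 points share the arrays and their background, so these distances describe the readings only.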

How the data were processed

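The intensity values are MAS5 signals on a linear scale, for which the submitters' processing notes name MAS5 and Affymetrix Expression Console without versions. Every array has the same mean of 500 once the top and bottom 2% are removed, so the deposited intensity values had been scaled. Per the labels' protocols, RNA came from RNeasy kits and was amplified before biotin labelling. The authors' deposited tables of flight against ground hold log2 fold changes with p-values and q-values, per the file headers, and name no test.

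Tests ran on log2(intensity + 16), where the added 16 shrinks differences of dim probe sets. Without the 64 Affymetrix controls, 22746 probe sets entered limma 3.58.1 (R 4.3.3; lmFit and eBayes), and calls have a Benjamini-Hochberg adjusted p under 0.05. The fits were checked on simulated data. Flight was compared with ground on the 12 arrays of a material, and materials and the difference of flight effects on all 24. Shares above background were compared by exact permutation tests (scipy 1.17.1). Where a whole group of arrays was below background, only a bound exists, given as "at least N-fold" against the group mean with each array raised to its background, and none where that falls under 1.

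The 9 genes and the lists were chosen with earlier results of these data known. All 9 are described in each comparison. From each list the rule takes the 2 called genes with the largest difference, or else the gene with the smallest p. Endodermis, epidermis and other genes named on ground seedling replicate 1 fall outside this rule and were chosen after their values were seen. No probe set was found for 4 of the listed genes. A deposited table calls the arrays of a group biological replicas but does not describe separate cultures. The p-values thus cover the spread among these arrays, part of which may be technical, and the number of arrays limits precision. For flight against ground in cells, the fit gave the 9 genes a common spread in place of their own. Same-numbered flight and ground arrays share a canister position. Their deviations correlated at -0.05 to 0.10 in cells and -0.02 to 0.06 in seedlings, so the numbers were not taken to pair the samples. Alternatives were other pseudocounts (1 and 64), a filter on dim probe sets, quantile normalization, a trended robust prior, array weights, arrays left out, canister, hardware position and all 24 arrays in 1 fit. Omission of both arrays that stand apart was added after seeing the data. Without a named genome build, no positions are given.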

Additional observations from a re-analysis of the deposited data

Results flagged for a closer look

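In 5 of the 40 sets of 6 arrays examined (9 genes and the share above background in 4 groups), 1 array lay apart by Dixon's criterion at 95%, which chance gives in about 1 of 20 sets. SHR in ground seedlings had its lowest level, 6.178, on replicate 1, and the next value was 9.101. ARG1 in ground seedlings had its highest level, 10.56, on the same replicate, with the next at 9.587. ARL2 in flight seedlings read 4.543 on replicate 1, with the next at 6.803. SCR in ground cells read 7.008 on replicate 4, below background, with the next at 9.072. The share of probe sets above background was 76.72% on flight cell replicate 5, with the next at 29.4%.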

How the results depend on the processing

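None of the 9 genes passed for flight against ground, or for the difference of flight effects, under any alternative run, including hardware position as a replicate block (0 called in each material, SGR2 in seedlings -0.95 at an adjusted p of 0.607). The position block changed no call of these genes. Under the alternatives SGR2 in seedlings ranged from -1.19 to -0.74 and SGR5 from 0.69 to 1.02. Uncalled differences changed sign in 10 of 191 repeats in cells (SCR, SGR5, SYP22) and 3 of 196 in seedlings (ARG1, PGM1, SYP22). Of the material calls, 3 on the ground and 3 in flight became 0 with the canister as a block. Over all probe sets that block cut the calls from 8675 to 2315 on the ground and from 10331 to 3767 in flight. The fit within canister G uses fewer arrays, and the block leaves fewer degrees of freedom for material. The filter kept only VTI11 and SGR5 in cells, and dropped PGM1 and ARL2 elsewhere. With 1 array left out, 2 to 4 genes passed on the ground and 2 to 3 in flight. VTI11 in flight passed with a pseudocount of 64, the filter, the trended prior or array weights (adjusted p 0.0236 to 0.043), in 6 of 21 alternatives in all. Its difference ranged from -2.11 to -0.70, the latter under quantile normalization (adjusted p = 0.426). Without both arrays that stand apart, 3 genes passed in each condition. The share above background in cells, 7.68 points higher in flight, turned to -2.4 without flight cell replicate 5, and with 1 array left out ranged from -2.4 to 11. In seedlings it stayed between 9.91 and 14.4. High background on cell arrays limits the cell readings of all 9 genes. Only for VTI11 and SYP22 did the seedling means exceed the background of every cell array.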
